A study of Mus musculus with 13 samples.

Results

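The transcripts followed here are 10 genes of iron handling and antioxidant defence: Hmox1, Fth1, Ftl1, Slc40a1, Tfrc, Slc11a1, Cybb, Gclm, Gpx4 and Nqo1. They were listed by name with earlier results of these data known, and found by Ensembl identifier. They are 10 of the 55536 genes in the files. All 10 passed the filter on low counts, Cybb only through the transgenic libraries, and the filter left 17483 genes for testing. The RNA came from frontal cortex. The wild-type mice carried the strain label B6SJLF1/J, with 4 libraries at 6 months and 3 at 11 months of age. The transgenic mice carried the strain label 5XFAD, with 3 libraries at each age. 5XFAD mice express mutant human transgenes, APP among them, from regulatory sequence of the mouse Thy1 gene, which is active mainly in neurons, and they are a model of amyloid deposition rather than of the whole human disease. The human transgenes were not analysed here.

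Iron is needed by every cell and is toxic when free, because ferrous iron turns peroxides into radicals that oxidise lipids. Cells take up transferrin-bound iron through the transferrin receptor, store it inside ferritin, export it through ferroportin and recover it from heme through heme oxygenase. In the brain, oligodendrocytes hold much of the ferritin-bound iron, and microglia and macrophages clear iron-rich debris. NADPH oxidase makes superoxide in phagocytes, and the glutathione system, the selenoenzyme GPX4 and the targets of the transcription factor NRF2 limit oxidative damage.

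Of these genes, 4 carry the hairpin by which cells read their own iron level. Iron regulatory proteins bind this iron-responsive element when iron is scarce, which blocks translation of a transcript with the element in its 5′ UTR and stabilises one with it in its 3′ UTR. The elements are shown because they separate the storage and export genes, which are controlled through translation and need not change in RNA level, from the uptake gene, which is controlled through RNA stability. A search of the sense strand of annotated UTRs for a C, any 5 bases and the loop CAGTGN, closed by 5 bases that pair with the 5 before the loop (G-T pairs allowed), found 7 matches in these genes. Capitals mark the bulged C and the loop, and each sequence runs 5′ to 3′ on the strand of the gene, from GENCODE transcripts on GRCm38.
Fth1, 5′ UTR, chr19:9982732-9982760, plus strand: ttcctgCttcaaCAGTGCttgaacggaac
Ftl1, 5′ UTR, chr7:45459779-45459807, minus strand: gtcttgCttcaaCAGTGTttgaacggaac
Slc40a1, 5′ UTR, chr1:45925465-45925493, minus strand: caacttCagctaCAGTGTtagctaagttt
Tfrc, 3′ UTR, chr16:32631219-32631247, plus strand: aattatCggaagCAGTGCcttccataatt
Tfrc, 3′ UTR, chr16:32631598-32631626, plus strand: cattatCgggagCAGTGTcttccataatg
Tfrc, 3′ UTR, chr16:32631663-32631691, plus strand: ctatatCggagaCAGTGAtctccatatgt
Tfrc, 3′ UTR, chr16:32631710-32631738, plus strand: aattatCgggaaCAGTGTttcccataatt

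The pattern is rare. It was present in a 5′ UTR of 31 of 20597 genes (0.151%) and in a 3′ UTR of 129 of 20995 genes (0.614%). Fth1, Ftl1 and Slc40a1 each held 1 match in the 5′ UTR and Tfrc held 4 in the 3′ UTR. The matches describe sequence only and were not tested for protein binding.

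The libraries held 23618296 to 26615776 counts each. Thy1, the mouse gene whose regulatory sequence drives the transgenes, was examined as a check of the labels. It stood at 725 ± 61.2 CPM (counts scaled to library size by TMM; mean ± SD, n = 4) in wild type and 2772 ± 335 CPM (n = 3) in 5XFAD at 6 months. The 11-month means were 577 ± 53.3 and 2820 ± 585 CPM (n = 3 each). Mouse App passed at neither age, with log2 fold changes of -0.08 ± 0.10 and 0.09 ± 0.11. The labels do not say whether libraries came from separate animals, so p-values reflect library-to-library spread that may be technical in part. As read from Xist and Y-linked genes, females gave 2 of 4 wild-type and 0 of 3 5XFAD libraries at 6 months, and 1 of 3 wild-type and 2 of 3 5XFAD libraries at 11 months. The labelled tissue held all 10 neuron, 10 astrocyte and 10 oligodendrocyte markers above 0 in every group, with neuron markers summing to 8414 to 14709 CPM. In markers, 3 wild-type libraries stood apart: 6-month replicate 1 in choroid plexus markers (2999 summed CPM against 5.57 to 38.9 in the others), 6-month replicate 3 in oligodendrocyte markers and 11-month replicate 2 in microglia and astrocyte markers. The 11-month 5XFAD libraries also varied, with 1127, 1083 and 1505 summed CPM of microglia markers and 7824, 11236 and 7411 of oligodendrocyte markers. Some values of the 10 genes are also given without the 3 wild-type libraries. Those were chosen after seeing the data and all come from 1 genotype, so leaving them out can itself move the genotype differences.

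Per transcript length, Fth1 was by far the most abundant of the 10. The median over the 13 libraries was 5432 TPM (transcript abundance per length, as deposited) for Fth1, 891 TPM for Ftl1 and 695 TPM for Gpx4. Tfrc (32.7 TPM) and Gclm (22.8 TPM) were intermediate. Hmox1 (5.62 TPM), Nqo1 (4.21 TPM), Slc11a1 (3.77 TPM) and Slc40a1 (2.34 TPM) were low, and Cybb was lowest at 0.31 TPM. The ranges over libraries did not overlap between Fth1 and Ftl1 (3590 to 7544 against 726 to 1235 TPM), while Ftl1 and Gpx4 (580 to 799 TPM), and Tfrc (23.4 to 38.9 TPM) and Gclm (20.3 to 29.8 TPM), overlapped. The 4 genes from Hmox1 to Slc40a1 also overlapped in range.

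At 6 months 3 of the 10 genes were higher in 5XFAD than in wild type (Slc11a1, Cybb and Hmox1) and 0 were lower, by edgeR's quasi-likelihood test at an adjusted p under 0.05. Of all genes tested, 1.3% were called higher and 0.0172% lower in that comparison. At 11 months 5 of the 10 were higher (the same 3 genes with Ftl1 and Nqo1) and 0 were lower, where 3.8% of all genes were called higher and 0.503% lower. In bulk tissue, more cells of a type and more RNA per cell cannot be told apart. The median log2 difference over the 10 genes was 0.35 at 6 months and 0.57 at 11 months, against -0.01 and -0.03 over all genes tested. By contrast, Fth1, Slc40a1, Tfrc, Gclm and Gpx4 passed at neither age. Because the list was drawn up with earlier results known, its contrasts with all genes are descriptions. Cybb, counted at both ages, entered testing only through its 5XFAD libraries.

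**Figure D1:**
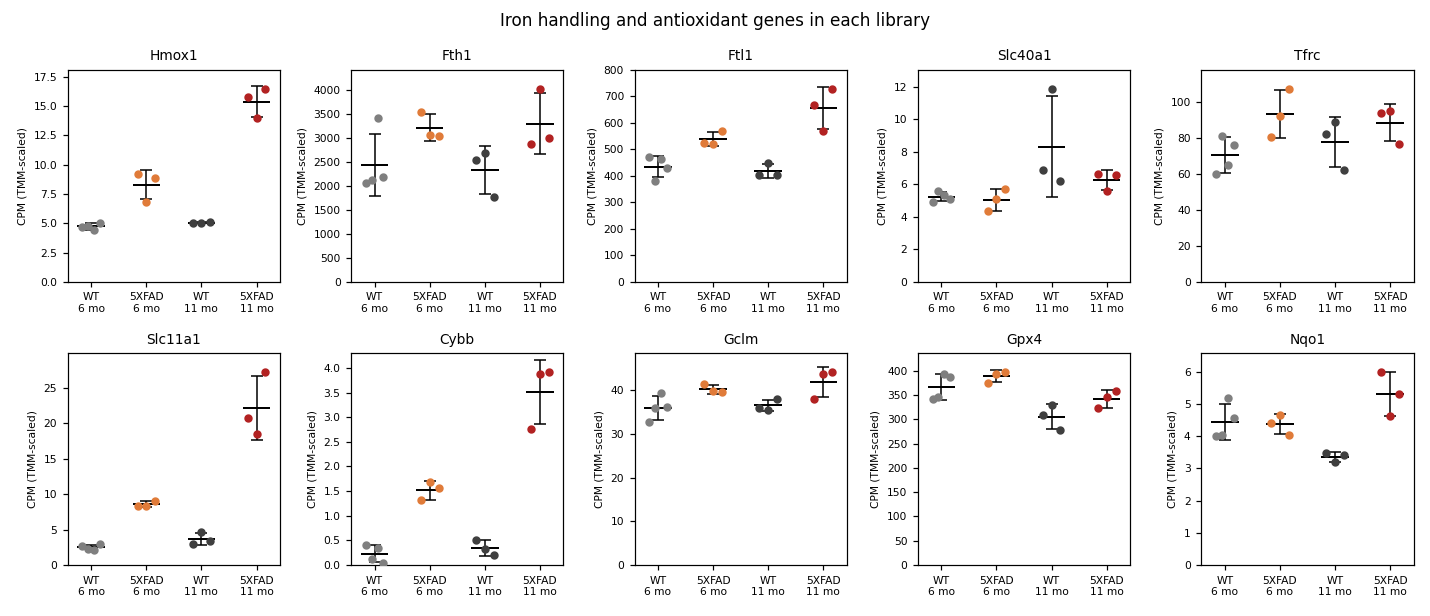
TMM-scaled CPM (linear axis from 0) of the 10 genes, 1 point per library in 4 groups: wild type (WT, n = 4) and 5XFAD (n = 3) at 6 months, and WT (n = 3) and 5XFAD (n = 3) at 11 months. Horizontal lines are means and bars are 1 SD. Hmox1, Slc11a1 and Cybb separate by genotype at both ages, and Fth1 and Slc40a1 each have a wild-type library far above the others of its group.

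**Figure D2:**
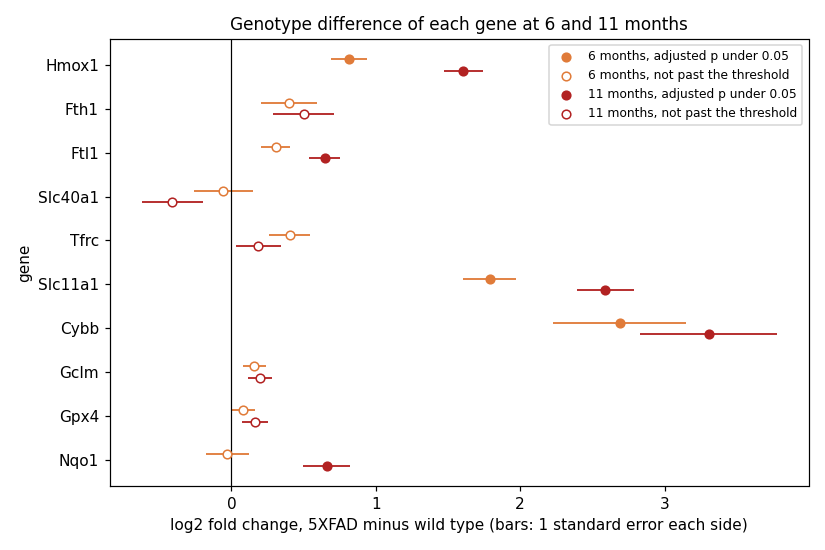
Log2 fold change, 5XFAD minus wild type, of each gene at 6 months (orange) and 11 months (red), with bars of 1 standard error each side. Filled points passed edgeR's test at an adjusted p under 0.05: 3 genes at 6 months and 5 at 11 months, all to the right of 0.

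Hmox1 encodes heme oxygenase 1, the inducible enzyme that splits heme into biliverdin, carbon monoxide and iron. It lies on GRCm38 chr8:75093621-75100589. At 6 months its level was 4.71, 4.79, 4.38 and 5.02 CPM in the wild-type libraries and 9.22, 6.85 and 8.82 CPM in the 5XFAD libraries. The 11-month libraries held 5.02, 5.05 and 5.08 CPM in wild type and 15.7, 14 and 16.5 CPM in 5XFAD. All 5XFAD libraries lay above all wild-type libraries, and those of 11 months above those of 6 months. The log2 fold change was 0.81 ± 0.12 (SE; 1.76-fold, adjusted p = 0.00289) at 6 months. At 11 months it was 1.61 ± 0.13 (3.04-fold, adjusted p = 6.72e-06). Without the 3 wild-type libraries that stood apart, the 6-month difference was 0.76 and missed the threshold (adjusted p = 0.0574).

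Between 6 and 11 months Hmox1 rose in 5XFAD by 0.89 ± 0.13 on the log2 scale (adjusted p = 0.00428). In wild type the difference was 0.10 ± 0.13 and did not pass the test (adjusted p = 0.696). The test of the difference between the genotype effects at the 2 ages gave 0.79 ± 0.18, which did not pass (adjusted p = 0.522 by edgeR's quasi-likelihood test). The genotype, age and interaction comparisons share libraries and are not independent.

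Slc11a1 encodes NRAMP1, a metal transporter of the phagosome membrane in macrophages and microglia. It lies on chr1:74375195-74386062. Its level at 6 months was 2.66, 2.19, 2.13 and 2.94 CPM in wild type and 8.31, 8.38 and 9.05 CPM in 5XFAD. The 11-month values were 2.95, 4.64 and 3.41 CPM in wild type and 20.7, 18.5 and 27.2 CPM in 5XFAD. The genotypes did not overlap at either age. The log2 fold change was 1.79 ± 0.18 (3.45-fold, adjusted p = 0.000101) at 6 months and 2.59 ± 0.20 (6.02-fold, adjusted p = 2.68e-06) at 11 months.

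With age, Slc11a1 rose in 5XFAD by 1.37 ± 0.18 (log2; adjusted p = 0.00332). In wild type the age difference was 0.56 ± 0.19 (adjusted p = 0.096), which passed only without 11-month replicate 1 (0.70, adjusted p = 0.0409) and was 0.31 (adjusted p = 0.498) without the 3 wild-type libraries that stood apart. The genotype effects at the 2 ages differed by 0.80 ± 0.26, which did not pass (adjusted p = 0.9995).

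Cybb encodes gp91phox, the catalytic subunit of the phagocyte NADPH oxidase. It lies on chrX:9435252-9487771. The gene was close to the limit of detection, with 427 counts over the 13 libraries. Wild-type libraries held 1 to 13 counts, mostly under the filter's minimum of 10, and 5XFAD libraries 33 to 101. Cybb was therefore tested only because it was high in 5XFAD, so its calls are descriptions. The summed counts were 23 in the 4 wild-type and 113 in the 3 5XFAD libraries at 6 months, and 26 and 265 at 11 months. Its level was 0.41, 0.12, 0.35 and 0.04 CPM in wild type and 1.31, 1.69 and 1.55 CPM in 5XFAD at 6 months. The 11-month values were 0.52, 0.32 and 0.21 CPM in wild type and 2.75, 3.87 and 3.91 CPM in 5XFAD. Every 5XFAD library was above every wild-type library.

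The log2 fold change of Cybb was 2.69 ± 0.46 (adjusted p = 0.00644) at 6 months and 3.30 ± 0.47 (adjusted p = 0.000606) at 11 months. The size of the 6-month change varied between settings. It was 4.14 (adjusted p = 0.00439) without the 3 wild-type libraries that stood apart, and 0.51 (adjusted p = 0.0827) as a limma difference on log2(TPM + 1) with no filter. The 11-month change ran from 0.79, on that same scale, to 3.70 over the other settings. The age difference in 5XFAD was 1.21 ± 0.41 (log2; adjusted p = 0.0853), which passed with DESeq2 (adjusted p = 0.0161). It also passed with only the groups compared in the fit (adjusted p = 0.00982) and without those 3 libraries (adjusted p = 0.0292).

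Fth1 and Ftl1 encode the heavy and light chains of ferritin, of which the heavy chain oxidises iron and the light chain favours its deposition in the core. Fth1 lies on chr19:9980598-9985098 and Ftl1 on chr7:45457944-45459884. Ftl1 stood at 470, 379, 462 and 430 CPM in wild type and 525, 521 and 568 CPM in 5XFAD at 6 months. Ftl1 at 11 months stood at 404, 449 and 403 CPM in wild type and 666, 570 and 728 CPM in 5XFAD. The genotypes did not overlap at either age. The 6-month log2 difference of 0.31 ± 0.10 did not pass the test (adjusted p = 0.27), whereas at 11 months Ftl1 rose by 0.65 ± 0.11 (1.56-fold, adjusted p = 0.00227). The genotype effects at the 2 ages differed by 0.34 ± 0.15, which did not pass the test (adjusted p = 0.9995).

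Fth1 varied far more between libraries of 1 group. At 6 months it stood at 2054, 2126, 3412 and 2177 CPM in wild type and 3553, 3052 and 3049 CPM in 5XFAD. By 11 months Fth1 stood at 2547, 2687 and 1766 CPM in wild type and 2872, 4023 and 3003 CPM in 5XFAD. Wild-type replicate 3 lay inside the 5XFAD range at 6 months, and the genotypes did not overlap at 11 months. The log2 differences of 0.40 ± 0.19 (adjusted p = 0.581) and 0.50 ± 0.21 (adjusted p = 0.254) did not pass the test. Without wild-type replicate 3 the 6-month difference was 0.60 (adjusted p = 0.121). Without the 3 wild-type libraries that stood apart the differences were 0.58 (adjusted p = 0.233) at 6 months and 0.61 (adjusted p = 0.0852) at 11 months. The coefficient of variation within groups was 9.01% to 26.6% for Fth1 and 4.92% to 12.2% for Ftl1.

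The spread of Fth1 moved with oligodendrocyte transcripts. The summed level of 10 oligodendrocyte markers, among them the myelin gene Mbp, was 6616, 6833, 14126 and 6644 CPM in wild type and 12157, 10789 and 9958 CPM in 5XFAD at 6 months. At 11 months it was 10195, 7025 and 5819 CPM in wild type and 7824, 11236 and 7411 CPM in 5XFAD. None of the 10 markers was at 0 in any group, and 0 of 10 passed the genotype test at either age. The library with the highest Fth1 in wild type at 6 months was the one with the highest marker sum. Over the 13 libraries the log2 levels of Fth1 and the marker sum gave Pearson's r = 0.836 (permutation p = 0.0003) and Spearman's rho = 0.912 (permutation p = 2e-05, 100000 resamples). Pearson's r was 0.815 without the 2 libraries farthest from the median marker sum (wild-type replicate 3 and 5XFAD replicate 1 at 6 months), and 0.899 for deviations from the group means. This was the only such relation computed, and it was chosen after the values were seen.

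Per 100 CPM of oligodendrocyte markers, Fth1 stood at 24.2 to 32.8 CPM in wild type and 28.3 to 30.6 CPM in 5XFAD at 6 months. At 11 months this ratio ran from 25 to 38.2 (wild type) and from 35.8 to 40.5 (5XFAD). The genotypes overlapped at both ages, and the mean log2 difference within age was 0.14 (two-sided exact permutation test within age, 700 regroupings, p = 0.26, adjusted over 6 ratios 0.39). Without the 3 wild-type libraries that stood apart it was 0.16 (exact permutation p = 0.24), with wild type above 5XFAD at 6 months (31.1 to 32.8) and below it at 11 months (25 to 30.4). The ratio of Fth1 to Ftl1 in TPM was 4.57 to 7.73 and 5.62 to 7.08 at 6 months in wild type and 5XFAD, and 4.6 to 6.61 and 4.34 to 7.42 at 11 months. Its mean log2 difference was -0.00 (exact permutation p = 0.979). For both ratios, opposite differences at the ages cancel in the mean, so the tests cannot show that a difference is absent at either age.

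**Figure D3:**
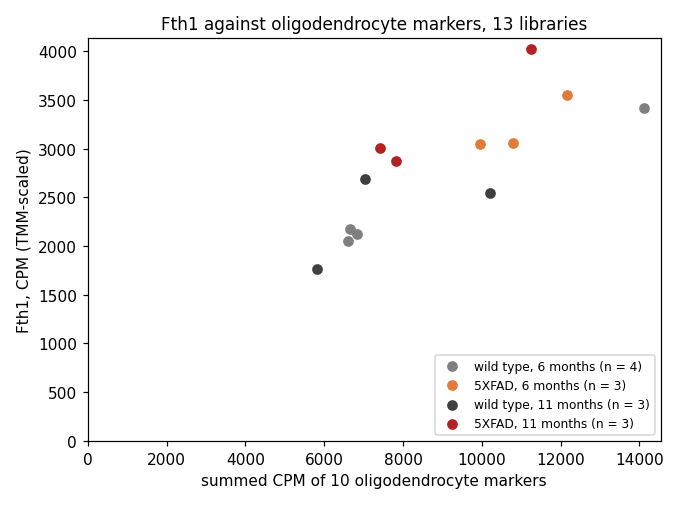
Fth1 (TMM-scaled CPM) against the summed CPM of 10 oligodendrocyte markers, 1 point per library and 1 colour per group, both axes linear from 0. The points rise together, and wild-type 6-month replicate 3, at 14126 CPM of markers and 3412 CPM of Fth1, lies at the far right.

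Slc40a1 encodes ferroportin, the known cellular iron exporter, and lies on chr1:45908068-45926523. It was at 4.91, 5.61, 5.35 and 5.11 CPM in wild type and 4.33, 5.08 and 5.71 CPM in 5XFAD at 6 months. Its 11-month level was 6.89, 11.9 and 6.2 CPM in wild type and 6.64, 5.56 and 6.59 CPM in 5XFAD. The genotypes overlapped at both ages, and wild-type 11-month replicate 2 was above all other libraries. The log2 differences between genotypes were -0.06 ± 0.20 (adjusted p = 0.964) and -0.41 ± 0.21 (adjusted p = 0.382). Without the 3 wild-type libraries that stood apart, of which replicate 2 is one, the 11-month difference was -0.07 (adjusted p = 0.886). Replicate 2 also had the highest summed endothelial markers, 441 CPM against 188 to 338 CPM in the other 12 libraries, and their part in the value was not tested.

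Slc40a1 was higher at 11 than at 6 months in every wild-type library, with a log2 difference of 0.67 ± 0.20 that missed the threshold (adjusted p = 0.0685). It passed with DESeq2 (adjusted p = 0.0251), and without 11-month replicate 1 (0.79, adjusted p = 0.0358) or replicate 3 (0.84, adjusted p = 0.0322), settings that keep replicate 2. Without the 3 libraries that stood apart it was 0.29 (adjusted p = 0.445). Endothelial markers in 6-month wild type summed to 188 to 237 CPM, and in the older wild-type libraries to 283 to 441 CPM. Of the 10 markers 7 were called higher with age, where 3.71% of all genes were called in either direction. Without replicate 2, 0 of the 10 and 2 of all 17870 genes then tested were called. Such a loss was not particular to replicate 2. Leaving out other single wild-type libraries gave from 0 genes (6-month replicate 4) to 1921 (11-month replicate 1). In 5XFAD the age difference of Slc40a1 was 0.31 ± 0.22 (adjusted p = 0.401). There 6 of the 10 endothelial markers were called higher with age, where 4.84% of all genes were called higher. The median log2 age difference over the endothelial markers was 0.83 in wild type and 0.81 in 5XFAD.

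Tfrc encodes the transferrin receptor and lies on chr16:32608920-32632794. It stood at 59.9, 81.1, 64.6 and 76.1 CPM in wild type and 80.4, 92.1 and 107 CPM in 5XFAD at 6 months. Its 11-month level was 82.1, 88.4 and 61.8 CPM in wild type and 93.5, 94.6 and 76.4 CPM in 5XFAD. The groups overlapped at both ages. The log2 differences were 0.40 ± 0.14 (adjusted p = 0.342) and 0.19 ± 0.15 (adjusted p = 0.627), or 0.25 and 0.29 without the 3 wild-type libraries that stood apart.

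The 4 genes with an iron-responsive element gave 1 call in the genotype comparisons, Ftl1 at 11 months. Of all genes, 1.3% were called higher at 6 months and 3.8% at 11 months, and 4 genes are too few to describe a class. Their log2 differences at that age were 0.50 (Fth1), 0.65 (Ftl1), -0.41 (Slc40a1, or -0.07 without the libraries that stood apart) and 0.19 (Tfrc). RNA levels do not measure the translational control that the 5′ elements exert.

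Gclm encodes the modifier subunit of glutamate-cysteine ligase, which makes the precursor of glutathione, and lies on chr3:122245557-122270732. It stood at 32.7 to 39.4 CPM in wild type and 39.5 to 41.5 CPM in 5XFAD at 6 months, and at 35.6 to 38.1 and 38.0 to 44.2 CPM at 11 months. The groups just failed to overlap at 6 months and just overlapped at 11 months. The log2 differences were 0.16 ± 0.08 (adjusted p = 0.594) and 0.20 ± 0.09 (adjusted p = 0.268), and on the TPM scale the 6-month difference was -0.02. Gm17494, a transcript on the opposite strand, held a count equal to 29.9% of that of Gclm. The strand setting of the counting is not given in the sources used here, so reads of the pair cannot be told apart.

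Gpx4 encodes the selenoenzyme that reduces lipid hydroperoxides in membranes, and lies on chr10:80047166-80056439. It stood at 343 to 393 CPM in wild type and 374 to 397 CPM in 5XFAD at 6 months, and at 279 to 329 and 322 to 358 CPM at 11 months. The genotypes overlapped at both ages, with log2 differences of 0.08 ± 0.08 (adjusted p = 0.855) and 0.16 ± 0.09 (adjusted p = 0.418), and -0.08 at 6 months on the TPM scale. Within each genotype all 11-month libraries lay below all 6-month libraries, by -0.27 ± 0.08 in wild type (log2; adjusted p = 0.0826) and -0.18 ± 0.09 in 5XFAD (adjusted p = 0.231). The wild-type difference passed with DESeq2 (adjusted p = 0.0187). A pseudogene, Gpx4-ps, held 3.07% of the counts of the pair, and the authors' counting may split reads between the copies.

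Nqo1 encodes a quinone reductase that is a classical NRF2 target, and lies on chr8:107388225-107403206. It stood at 4.01, 4.02, 5.20 and 4.57 CPM in wild type and 4.41, 4.65 and 4.04 CPM in 5XFAD at 6 months. Nqo1 at 11 months stood at 3.47, 3.19 and 3.41 CPM in wild type and 5.99, 4.64 and 5.31 CPM in 5XFAD. The groups overlapped at 6 months and were separate at 11 months, where the wild-type libraries were below all others of the series. The log2 difference was -0.03 ± 0.15 (adjusted p = 0.979) at 6 months and 0.66 ± 0.16 (1.58-fold, adjusted p = 0.0334) at 11 months. The interaction of 0.69 ± 0.22 did not pass (adjusted p = 0.9995). The 11-month call was lost in 12 of 16 other settings, with adjusted p from 0.00666 to 0.159. Among them were the fit with sex as a covariate (0.0589) and those without wild-type replicate 1, 2 or 3 (0.0663, 0.0851 and 0.0754), 5XFAD replicate 1 or 3 (0.159 and 0.118), or the 3 wild-type libraries that stood apart (0.0856).

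Of the 8 genes with a promoter entry in RefSeq (GRCm38.p6; Hmox1 and Slc40a1 had none), only Gclm held the antioxidant response element core TGACNNNGC within 250 bases before its start. The match, on the minus strand and starting at -134, was found in a search of both strands with no other motif. The core occurred in 3338 of 32851 promoters (10.2%). Gclm, as above, did not pass the genotype test.

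Libraries of the 2 genotypes did not overlap for 5 of the 10 genes at 6 months, all higher in 5XFAD, where 6.97% of all genes were so separated. At 11 months they did not overlap for 6 of the 10, again all higher, where 10.4% of all genes were. Cybb, which entered testing only through its 5XFAD libraries, is counted at both ages.

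With age, 0 of the 10 genes passed the test in wild type by edgeR, 4 had an unadjusted p under 0.05, and DESeq2 called 2 (Slc40a1 higher and Gpx4 lower). Of all genes 3.71% were called in that comparison by edgeR and 23.8% had an unadjusted p under 0.05. DESeq2 called 1811 of the 17483 genes there. In 5XFAD 2 of the 10 genes rose with age (Hmox1 and Slc11a1) and 0 fell, where 4.84% of all genes were called higher and 2.39% lower. The median log2 age difference over the 10 genes was 0.06 in wild type and 0.28 in 5XFAD, against 0.02 and -0.00 over all genes. The interaction test passed for 0 of the 10 genes by edgeR and for 0 by DESeq2, with 4 at an unadjusted p under 0.05 (Hmox1, Slc11a1, Ftl1 and Nqo1). By edgeR it called 0.00572% of all genes, and 3.96% had an unadjusted p under 0.05. DESeq2 called 27 genes for the interaction.

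Microglial transcripts were also higher in 5XFAD. The 12 microglia markers, all above 0 in every group, summed to 334 to 340 CPM in wild type and 633 to 678 CPM in 5XFAD at 6 months. At 11 months the sums were 345 to 600 CPM and 1083 to 1505 CPM. Of the 12, 7 were higher and 0 lower at 6 months, where 1.3% of all genes were called higher. At 11 months 11 of the 12 were higher and 0 lower, where 3.8% of all genes were called higher. Tmem119, a marker of resident microglia, was the one that did not pass at 11 months (log2 0.44 ± 0.19, adjusted p = 0.295). Markers of border macrophages and monocytes summed to 1.96 to 6.32 CPM and those of neutrophils to 0.29 to 5.16 CPM over all libraries. In 6-month wild type the neutrophil genes Elane and Mmp8 were at 0. Astrocyte markers also separated the genotypes at 6 months, with 3053 to 3155 summed CPM in wild type and 3682 to 4045 CPM in 5XFAD, and overlapped at 11 months (3539 to 5738 and 5505 to 6604 CPM). Of those 10 markers 1 was called higher at 6 months and 3 at 11 months. Neuron markers separated them at both ages, but that list holds Thy1. Without Thy1 they overlapped, at 8963 to 11150 and 10889 to 11567 CPM at 6 months and 7872 to 11821 and 10833 to 11087 CPM at 11 months. The part of these cell types in the genotype differences was not tested.

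The 4 genes that rose and are expressed by microglia were set against the marker sum, as CPM per 100 CPM of markers, in ratios chosen after the values were seen. Per unit of markers, Slc11a1 ran from 0.63 to 0.86 in wild type and from 1.25 to 1.34 in 5XFAD at 6 months, and 0.72 to 0.85 and 1.71 to 1.83 at 11 months. The genotypes did not overlap, and the mean log2 difference was 1.01 (two-sided exact permutation test within age, p = 0.00143, the smallest that 700 regroupings allow; adjusted over 6 ratios 0.00429). Cybb was 0.01 to 0.12 and 0.20 to 0.27 at 6 months, and 0.04 to 0.15 and 0.24 to 0.36 at 11 months, a mean log2 difference of 2.12 (exact permutation p = 0.00429, adjusted 0.00857). Without the 3 wild-type libraries that stood apart, the mean log2 differences were 0.99 for Slc11a1 and 2.63 for Cybb (exact permutation p = 0.01 each, the smallest that the remaining 100 regroupings allow), and the genotypes again did not overlap. For Cybb the 6-month wild-type libraries held only 10, 3, 9 and 1 counts. Those of 3 and 1 counts remained in the smaller set, so the size of the Cybb difference is uncertain. Both genes differed more between genotypes than the marker sum did, Cybb from values near the limit of detection. These differences were known when the ratios were chosen, so the p-values are descriptions. The ratios depend on the markers summed, and more microglia and more RNA per cell still cannot be told apart.

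Hmox1 overlapped between the genotypes at both ages by this measure. It was 1.29 to 1.48 CPM per 100 CPM of markers in wild type and 1.08 to 1.39 in 5XFAD at 6 months, and 0.84 to 1.45 and 1.09 to 1.40 at 11 months. The mean log2 difference over both ages was 0.02 (exact permutation p = 0.926). The group means were 1.40 in wild type and 1.26 in 5XFAD at 6 months, and 1.12 and 1.26 at 11 months. Such opposite differences cancel in the mean over ages, so the test cannot show that a difference is absent at either age. Without the 3 libraries that stood apart the mean difference was -0.10 (exact permutation p = 0.41), with no overlap at 6 months (1.42 to 1.48 in wild type against 1.08 to 1.39). The median log2 genotype difference of the 12 markers was 0.93 at 6 months and 1.21 at 11 months, against 0.81 and 1.61 for Hmox1. The markers rose unequally, so the ratio depends on the markers summed. Ftl1, which is expressed widely, was lower per unit of markers in 5XFAD at both ages: 112 to 141 against 78.9 to 83.8 at 6 months, and 74.8 to 117 against 48.4 to 59.1 at 11 months. Its mean log2 difference was -0.71, and -0.73 without those 3 libraries. Ftl1 itself was higher in 5XFAD, by 0.31 and 0.65, which is less than the medians of the markers. The lower ratio follows from these known differences and tests nothing about Ftl1.

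**Figure D4:**
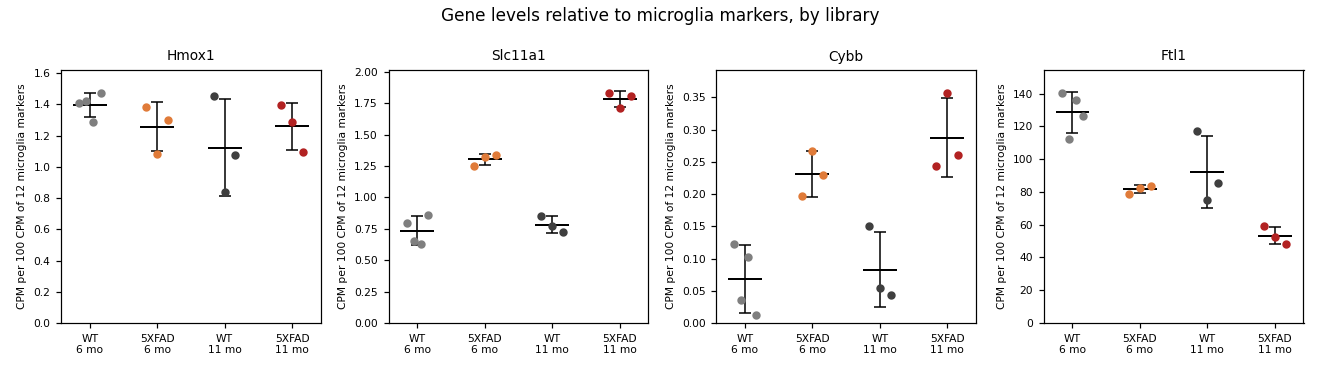
CPM of Hmox1, Slc11a1, Cybb and Ftl1 per 100 CPM of 12 summed microglia markers, 1 point per library (WT n = 4 at 6 and 3 at 11 months, 5XFAD n = 3 each), with means and 1 SD, linear axes from 0. Slc11a1 and Cybb stay above wild type at both ages, Hmox1 overlaps, and Ftl1 is below.

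The genes with the most similar profile over the 13 libraries were found by Pearson's r of log2 CPM. For Hmox1 they were Serpina3n (r = 0.993), Ggta1 (0.987) and Gpr183 (0.986). For Slc11a1 they were Tnfaip8l2 (0.996), C1qc (0.993) and Ptpn6 (0.993), of which C1qc encodes a chain of complement C1q. For Cybb they were Slc14a1 (0.980), Capg (0.978) and Cxcl16 (0.976), and for Ftl1 Naprt (0.983), Ctsa (0.982) and Cd63 (0.981). Nqo1 had looser partners, Pik3ip1 (0.915), Klk6 (0.871) and Rftn1 (0.839). Fth1, added after its values were seen, was most like Frmd8 (0.968), Trf (0.937) and Sept2 (0.932), of which Trf encodes transferrin. Genotype, age and library are shared by all these profiles, so the values of r are descriptions.

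Among the other genes of these pathways, the partners of Cybb moved most. Of 13 further NADPH oxidase genes 8 were tested, and 6 of the 8 were higher and 0 lower at each age, with median log2 differences of 1.19 and 1.69. Of all genes tested, 1.3% were called higher at 6 months and 3.8% at 11 months. Cyba, which encodes p22phox, the membrane partner of gp91phox, rose from 5.89 ± 0.63 to 15.4 ± 1.68 CPM (log2 1.39 ± 0.17, adjusted p = 0.000472) at 6 months. The 11-month rise was from 6.58 ± 1.89 to 29.4 ± 4.99 CPM (log2 2.16 ± 0.19, adjusted p = 9.39e-06).

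Hvcn1, the proton channel that balances the charge moved by the oxidase, rose by 1.1 ± 0.18 (log2; adjusted p = 0.00505) and 2.15 ± 0.20 (adjusted p = 1.55e-05). The GTPase gene Rac2 rose by 1.40 ± 0.21 (adjusted p = 0.00203) and 1.62 ± 0.22 (adjusted p = 0.0004). Ncf4 (p40phox) and Ncf1 (p47phox) rose by 1.49 ± 0.32 (adjusted p = 0.0332) and 0.98 ± 0.22 (adjusted p = 0.0493) at 6 months. At 11 months they rose by 2.01 ± 0.34 (adjusted p = 0.00218) and 1.23 ± 0.23 (adjusted p = 0.00661). Of these calls, those of Rac2 and Ncf4 at both ages were lost on the TPM scale by limma. For Rac2 the adjusted p was then 0.33 to 0.561 at 6 months and 0.156 to 0.248 at 11 months. The 6-month calls of Ncf1 and Ncf4 held in fewer settings: Ncf1 was called in 5 and Ncf4 in 8 of 17 other settings, and leaving out any single library of that age ended the call of Ncf1. For Ncf1, wild-type 11-month replicates 2 and 3 (13.7 and 12.5 CPM) reached the level of 5XFAD at 6 months.

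**Figure D5:**
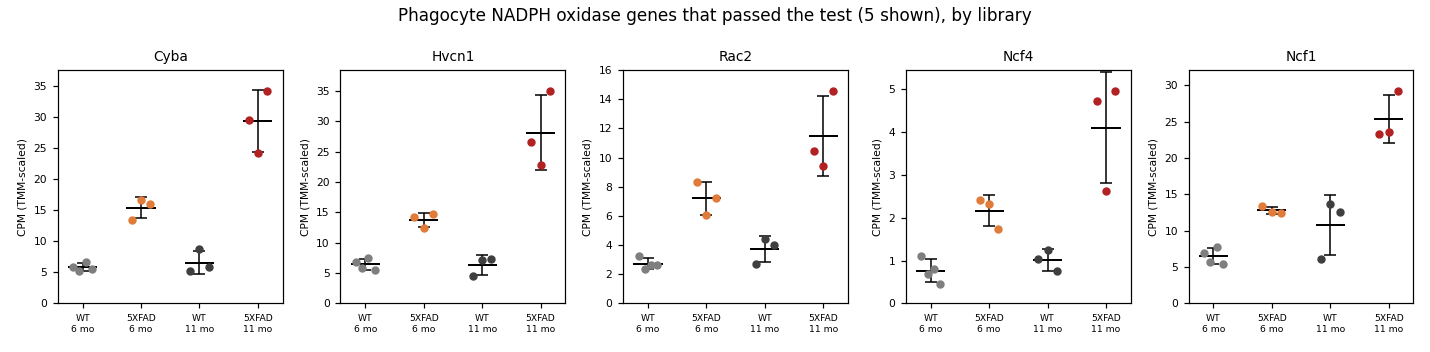
TMM-scaled CPM (linear axes from 0) of 5 of the NADPH oxidase genes that passed the test, 1 point per library (WT n = 4 at 6 and 3 at 11 months, 5XFAD n = 3 each), with means and 1 SD. All 3 5XFAD libraries lie above all wild-type libraries of the same age in each panel.

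Of 33 further genes of iron uptake, transport and regulation 27 were tested, 0 were called at 6 months and 1 at 11 months (against 3.8% of all genes called higher), and the median log2 difference at 11 months was -0.01. The called gene was Hfe, which encodes a partner of the transferrin receptor. It rose from 4.24 ± 0.79 to 7.5 ± 0.87 CPM (log2 0.82 ± 0.19, adjusted p = 0.0253), a call that held in 8 of 16 other settings and was lost without wild-type replicate 1 or 3 or 5XFAD replicate 1 or 3 (adjusted p 0.0657 to 0.134). Of 19 further genes of heme synthesis, transport and breakdown, among them Hmox2 and Blvrb, 0 were called at either age.

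Of 25 further genes of glutathione metabolism and lipid peroxide defence 24 were tested. Of these, 0 were called at 6 months and 2 at 11 months (against 3.8% of all genes called higher). The median log2 difference at 11 months was 0.22. Mgst1, a microsomal glutathione transferase, rose from 6.96 ± 1.68 to 14.5 ± 2.24 CPM (log2 1.06 ± 0.21, adjusted p = 0.00794), a call that was lost on the TPM scale by limma (adjusted p 0.0588 to 0.117). Alox5, the lipoxygenase of leukotriene synthesis, rose from 0.78 ± 0.34 to 1.97 ± 0.32 CPM (log2 1.33 ± 0.31, adjusted p = 0.0259). Alox5 makes lipid peroxides rather than removing them. Its call held in 8 of 16 other settings. It was lost without wild-type replicate 1 or 3 or 5XFAD replicate 2 or 3 (adjusted p 0.0676 to 0.136). The call was also lost on the TPM scale by limma (adjusted p 0.0964 to 0.15) and with only the groups compared in the fit (adjusted p = 0.134).

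Of 36 further NRF2 targets and antioxidant enzymes, 0 were called at 6 months, and 5 were higher and 0 lower at 11 months, with a median log2 difference of 0.18. Of all genes, 3.8% were called higher and 0.503% lower at 11 months. Nfe2l2, the gene of NRF2 itself, rose from 13.5 ± 2.10 to 24.7 ± 0.93 CPM (log2 0.86 ± 0.15, adjusted p = 0.00252). Prdx6, a peroxiredoxin that repairs oxidised phospholipids, rose from 226 ± 30.6 to 362 ± 26.1 CPM (log2 0.68 ± 0.11, adjusted p = 0.00184). Both calls held in 16 of 16 other settings. Prdx4 rose by 0.62 ± 0.14 (adjusted p = 0.0195), Prdx1 by 0.39 ± 0.08 (adjusted p = 0.0166) and Pgd, an enzyme of NADPH supply, by 0.35 ± 0.09 (adjusted p = 0.0308). Those 3 calls held in 6 or 7 of 16 other settings and each was lost without 1 or more single libraries (adjusted p up to 0.145).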

How the data were processed

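The 10 genes and all gene lists were chosen with earlier results of these data known. Per the submitters' processing notes, reads were aligned with STAR 2.7.1 and quantified with RSEM on GRCm38. Which RSEM version, annotation and strand setting were used is not given in the sources used here. Deposited expected counts (RSEM estimates, 7.24% to 7.71% not whole) were rounded. Deposited TPM values, scaled by the authors' quantifier for transcript length, gave levels between genes and alternatives. All 55536 identifiers matched GENCODE M21, the source of symbols and coordinates. Genes passing edgeR's filterByExpr (minimum count 10, total 15) were scaled by TMM and fitted as 4 group means over 13 libraries with edgeR 4.0.16's robust quasi-likelihood test in R 4.3.3. Benjamini-Hochberg adjustment ran over 17483 genes, with a threshold of 0.05. SE is the absolute log2 fold change over the square root of F. DESeq2 1.42.0 and limma 3.58.1 (log2(TPM + 1) and log2(TPM + 0.1)) were alternatives. Scripts were tested on simulated data. Named genes were the 10, App, Thy1, listed genes past the threshold at either age (at most 6 a list by p) and the 3 genes most alike. A gene that this rule chose is not reported here. Replicates are numbered in accession order and pair nothing.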

Additional observations from a re-analysis of the deposited data

Results flagged for a closer look

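The Fth1 level of wild-type replicate 3 at 6 months, 3412.4 CPM, stood apart from the other 3 libraries of its group. Its gap to the nearest of them was 0.910 of the range of the group, above Dixon's critical value for 4 samples. All 10 genes were examined in this way in the 1 group of 4 libraries, and chance marks about 1 in 20 groups. The same library had the highest sum of oligodendrocyte markers of all 13, 14126 CPM, and its part in the Fth1 value was not tested.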

How the results depend on the processing

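Of 879 values of the 10 genes under other settings, 823 kept direction and side of the threshold, 14 lost a call, 9 gained one and 33 changed sign, none of them a call. All genotype calls of Slc11a1 and Ftl1 held. The number of the 10 genes called moved by over 1.5 times only at 11 months, to 3 by limma on log2(TPM + 1) or log2(TPM + 0.1), where the filter drops Cybb and Nqo1 is lost, and for age in wild type, from 0 to 2 by DESeq2 and to 0 to 2 without single libraries. Counts over all genes by DESeq2 were 384 at 6 months, 1811 and 2076 for age in wild type and 5XFAD, and 27 for the interaction. On the TPM scale the age counts were 292 and 757 (TPM + 1), 282 and 666 (TPM + 0.1), and 16 and 479 without filter, with 118 at 6 months and 11 for the interaction. For age in wild type the count was 345 with sex as a covariate, 60 with the length trend removed, 1 with only the groups compared and 33 without the 3 libraries that stood apart. That last setting, added after seeing the data, gave 1975 for age in 5XFAD and 0 for the interaction. Only the groups compared gave 443 at 11 months and 2610 for age in 5XFAD, where the length trend removed gave 806. Without single libraries the counts were 134 to 205 at 6 months, 424 to 840 at 11 months, 0 to 1921 and 97 to 798 for age in wild type and 5XFAD, and 1 to 3 for the interaction. The cause was not tested.

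Sign changes, all below the threshold, were as follows. On the TPM scale they were -0.016 (TPM + 1, with or without filter) and -0.017 (TPM + 0.1) for Gclm, -0.076 and -0.076 for Gpx4 and -0.033 and -0.034 for Pgd at 6 months, -0.085 and -0.085 for App at 11 months, and -0.038 and -0.040 for Gclm with age in wild type. The median of all genes in the genotype comparisons was -0.12 to -0.15 on that scale with the filter, against -0.01 and -0.03 by edgeR. With the length trend removed, Fth1 and Ftl1 with age in wild type were 0.094 and 0.11. Without the 3 libraries that stood apart, Nqo1 at 6 months was 0.023, Fth1 and Tfrc with age in wild type were 0.0038 and -0.13, and the interactions of Slc40a1, Tfrc and Cybb were 0.021, 0.045 and -0.89. Leaving out single libraries gave -0.16 to 0.041 for Slc40a1 and -0.075 to 0.055 for Nqo1 at 6 months, -0.18 to 0.14 for Fth1 and -0.024 to 0.065 for Gclm with age in wild type, -0.13 to 0.13 for Fth1 and -0.18 to 0.030 for Tfrc with age in 5XFAD, and -0.10 to 0.21 for Fth1 and -0.0056 to 0.10 for Gclm in the interaction. No paired analysis was possible because the libraries of different groups share no replicate number in the labels. Among the 10 genes Cybb had the fewest counts, 427.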
